A study of Mus musculus with 4 samples.

Results

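Molecular chaperones and heat shock proteins were followed at the mRNA level in CD8+ PD-1+ CD44+ T cells from the tumor-draining lymph nodes of melanoma-bearing mice. The genes were chosen by name. Every gene whose symbol began with Hspa, Hspb, Hspd, Hspe, Hsph, Hsp90 or Dnaj, or with Cct and a digit, was taken, and pseudogenes marked -ps were left out, which gave 84 of 32285 genes. After the filter on low counts, 67 of these 84 were among the 11983 genes tested. The T cells came from female C57BL/6 mice with subcutaneous tumors of B16F10GP, a B16F10 melanoma line that carries a viral glycoprotein as a model antigen, and were sorted 7 days after treatment. There were 4 treatments: radiation of the tumor together with an antibody against PD-L1 (RT + αPD-L1), radiation alone (RT), the antibody alone (αPD-L1) and no treatment (Control). All 4 groups carried the same tumor line, and the sort had already selected antigen-experienced cells in each. Each treatment was 1 droplet library of 5 pooled mice, told apart by hashtag antibodies, so that a mouse was the replicate (n = 5 per treatment) while library and treatment cannot be told apart.

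Chaperones bind unfolded or partly folded proteins and help them reach their native shape. Hsp70 proteins bind and release short stretches of chain in a cycle driven by ATP, J proteins (the Dnaj genes) bring them their clients and start the cycle, and nucleotide exchange factors such as Hsph1 and Hspa4 reset it. Hsp90 acts later on clients such as kinases and steroid receptors, the TRiC complex encloses actin, tubulin and other proteins in a ring of Cct subunits, Hspd1 and Hspe1 form the folding chamber of mitochondria, and Hspa5 and Hsp90b1 serve the endoplasmic reticulum (ER). T cells that are stimulated through their receptor grow and make protein at a high rate before they divide, and heat shock factors and the ER stress factors ATF6 and XBP1 are the textbook regulators of many of these genes.

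The sequences below are stretches from the promoter windows of members on which the results turn, shown because several of them hold the letters of a known stress response element. RefSeq windows of GRCm38.p6, from 250 bases before to 50 after each annotated start, matched 68 of the 84 genes (87 windows). The 3-unit heat shock element, searched as GAANNTTCNNGAA on both strands, was in 0.603% of all 32851 windows and in those of 4 members, Hspd1, Hspe1, Hsph1 and Dnajb6. In Hsph1 this element lay after the annotated starts, within an exon. The mitochondrial genes Hspd1 and Hspe1 are read in opposite directions from starts at positions 55087932 and 55088148 of chromosome 1, and the windows of both starts held the same pair of overlapping elements. Hspd1 has another annotated start at 55088243, whose window did not hold the pair, and the stretch shown lies in an Hspd1 exon. The 2-unit form GAANNTTC, which is part of the longer element, was in 7.86% of all windows and in those of 16 members, among them Dnaja1, Hspa1a and Hspa1b. The ER stress response element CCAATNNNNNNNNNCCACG was in 0.119% of all windows and in those of 3 members, Hspa5, Hsp90b1 and Dnajc3. A match to these letters is a description of the window and not a sign that a factor was bound. The motif letters are in capitals below, each sequence runs 5′ to 3′ along the strand named, and a stretch that the annotation places in an exon of any transcript is cut to the motif and its flanks.
Hspe1 and Hspd1, chr1:55088051-55088079, plus strand: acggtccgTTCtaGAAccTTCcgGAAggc
Hspa1b, chr17:34959239-34959488, minus strand: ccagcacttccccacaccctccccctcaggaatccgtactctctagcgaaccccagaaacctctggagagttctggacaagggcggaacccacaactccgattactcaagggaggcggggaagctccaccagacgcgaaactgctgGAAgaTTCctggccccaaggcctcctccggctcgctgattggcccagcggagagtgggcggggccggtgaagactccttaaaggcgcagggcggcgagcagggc
Hsph1, chr5:149636280-149636308, minus strand: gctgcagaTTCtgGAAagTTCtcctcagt
Dnaja1, chr4:40722334-40722362, plus strand: aaagcctctaGAAaaTTCtacgaggctcg
Hsp90b1, chr10:86705510-86705694, minus strand: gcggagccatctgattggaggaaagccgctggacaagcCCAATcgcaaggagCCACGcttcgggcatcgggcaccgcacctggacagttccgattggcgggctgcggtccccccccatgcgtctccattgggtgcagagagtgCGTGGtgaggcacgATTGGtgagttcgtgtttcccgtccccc
Hspa5, chr2:34772020-34772048, plus strand: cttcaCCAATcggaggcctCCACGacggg
Dnajc3, chr14:118937682-118937931, plus strand: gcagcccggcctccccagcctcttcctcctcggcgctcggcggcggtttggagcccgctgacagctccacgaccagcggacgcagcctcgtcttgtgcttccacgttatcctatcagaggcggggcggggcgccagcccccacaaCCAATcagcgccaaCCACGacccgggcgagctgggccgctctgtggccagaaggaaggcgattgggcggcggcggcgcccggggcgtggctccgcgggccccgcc
The windows of Hspa1a and Hspa1b, neighbouring inducible Hsp70 genes, matched at 296 of 300 positions, and their coding sequences are near copies of each other, so the split of UMIs between them is uncertain.

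The 37766 T cells compared held 131 to 4670 cells and 1135955 to 38078437 UMIs (unique molecular identifiers, each counting 1 captured transcript) per mouse. RT mouse 4 was the smallest and RT + αPD-L1 mouse 3 the largest. Summed expression of 7 CD8 T cell markers was 4232 to 4843 CPM (UMI counts of a gene scaled to a common library total) in RT + αPD-L1 mice, 4194 to 4692 CPM in RT mice, 4320 to 4835 CPM in αPD-L1 mice and 4221 to 5033 CPM in Control mice. Between libraries, 113 to 163 kept cells carried a barcode that another library also held. Cells fell into 13 clusters, made without the chaperone genes, and the γδ T cell-like and dendritic cell-like clusters (3 of the 13) were left out of the comparisons. Markers of other cell types were also counted in the compared T cells. In RT + αPD-L1 mice they were at 161 to 192 CPM summed over 7 dendritic cell markers, 172 to 226 CPM over 6 B cell markers, 6.38 to 21.5 CPM over 6 γδ T cell markers and 6.64 to 22.2 CPM over 4 monocyte markers. In Control mice the ranges were 157 to 249, 198 to 212, 6.54 to 14.4 and 4.10 to 6.54 CPM in the same order. On average in RT + αPD-L1 mice, Ighm made 163.8 of 203.5 CPM of the B cell sum and Cst3 89.25 of 173.1 CPM of the dendritic cell sum. Whether these transcripts came from other cell types was not tested. Of these markers Itgax and Ccr2 (log2 fold change 1.81 ± 0.39, adjusted p = 0.00583) were called higher in RT + αPD-L1 mice, and 1 B cell and 1 monocyte marker were at 0 UMIs there. In sums over all cells of a mouse, fewer cells of a type and less RNA per cell cannot be told apart.

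Together the 84 genes made up about 1% of all UMIs in every mouse, and the ranges of all 4 treatments overlapped. The summed level was 10340 ± 418 CPM in RT + αPD-L1 mice, 10460 ± 271 CPM in RT mice, 10470 ± 576 CPM in αPD-L1 mice and 10450 ± 206 CPM in Control mice (mean ± SD, n = 5 each). Of the 20 mice the highest was αPD-L1 mouse 5 at 11436 CPM and the lowest was RT + αPD-L1 mouse 1 at 9901 CPM. Hsp90ab1, the constitutive cytosolic Hsp90, led with a median of 2549 CPM over the 20 mice, and Hspa8, the constitutive cytosolic Hsp70, followed with 1810 CPM, while Hspe1 had 474 CPM, Hspa5 had 363 CPM, Cct2 had 302 CPM and Hsp90aa1 had 301 CPM. Of the 67 genes tested, 26 had a median of at least 100 CPM, 25 had 10 to 100 CPM and 16 had less. Differences in CPM between genes also depend on how each transcript is captured, so the order of genes is given only as a description.

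The inducible Hsp70 genes Hspa1a and Hspa1b and the small heat shock genes were at the other end of the scale. Other stress-inducible members, such as Hsp90aa1, were not. Of the 17 genes that did not pass the filter, 5 had no UMI in any of the 20 mice and the other 12 had at most 113 UMIs in all. Those 17 include Hspa1a (113 UMIs), the testis-enriched gene Hspa1l, and Hspb1 (84 UMIs), the small heat shock protein Hsp25 of the mouse. Hspa1b was tested, with 377 UMIs in all. Variation between mice was small for the abundant genes, where the coefficient of variation over the 20 mice was 3.59% for Dnajc2 and 15.1% for Hsp90b1, the lowest and highest among the 26 genes above 100 CPM. Hsph1, at a median of 48.9 CPM, varied more (16.8%).

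Mice given the combination were set against Control mice to find the chaperone genes that differed. Of the 67 genes tested, 4 rose (Dnajc3, Dnaja1, Dnajc7 and Hspa1b) and 2 fell (Cct5 and Cct3), against 9.1% of all genes tested called in either direction, 6.01% called higher and 3.09% called lower. The share of members called, 6 of 67, was thus near the background. At an unadjusted p under 0.05 there were 11 higher and 10 lower. The count was 3 without RT + αPD-L1 mouse 2, 2 with hashtags assigned by HTODemux in either setting, 2 (Dnajc3 and Dnaja1) without the T_STEM-2-like cluster and 13 (7 higher and 6 lower) without cycling cells. The changes were small, and the median log2 fold change over the 67 genes was -0.02, beside -0.01 over all genes tested. Calls are from edgeR's quasi-likelihood test at a Benjamini-Hochberg adjusted p under 0.05 over all genes tested.

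Dnajc3 (P58IPK, chr14:118937976-118981697), a J protein of the ER lumen that works with Hspa5 and is known as an inhibitor of the kinase PERK, had 172, 162, 174, 167 and 167 CPM in RT + αPD-L1 mice 1 to 5, against 146, 146, 154, 141 and 149 CPM in Control mice 1 to 5. All 5 RT + αPD-L1 mice lay above all 5 Control mice (log2 fold change 0.20 ± 0.04 (SE), adjusted p = 0.00333). Dnaja1 (chr4:40722150-40737149), a farnesylated J protein that partners Hspa8 in the cytosol, had 252, 292, 321, 271 and 276 CPM in RT + αPD-L1 mice and 245, 235, 231, 241 and 238 CPM in Control mice. These groups did not overlap either (log2 fold change 0.27 ± 0.06 (SE), adjusted p = 0.0079). Levels in the mice given a single treatment lay between 259 and 326 CPM for Dnaja1, above every Control mouse, and between 149 and 186 CPM for Dnajc3, where they overlapped Control.

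Dnajc7 (chr11:100582818-100620168), a J protein with TPR repeats that binds both Hsp70 and Hsp90, had 145, 142, 144, 139 and 138 CPM in RT + αPD-L1 mice and 127, 132, 125, 131 and 131 CPM in Control mice. The groups did not overlap, although the step was small (log2 fold change 0.14 ± 0.04 (SE), adjusted p = 0.0161). Its level differed between cell states. The T_STEM-2-like cluster was led by interferon-stimulated genes, with 2980 of its 3509 cells from RT + αPD-L1 mice. It made up 1.04% to 43.22% of the cells of RT + αPD-L1 mice and 0.45% to 5.81% of those of Control mice. RT + αPD-L1 mouse 1, highest of its group in Dnajc7 at 145 CPM, had the share of 1.04%. In this cluster Dnajc7 averaged 179.7 ± 28.2 CPM, against 130.2 ± 4.27 CPM in the rest of the same 12 mice, and it was higher there in 12 of 12. Without those cells the log2 fold change of Dnajc7 was 0.04 (adjusted p = 0.997), and without RT + αPD-L1 mouse 2 its adjusted p was 0.0554.

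Hspa1b (chr17:34956436-34959238), the inducible Hsp70, had the highest fold change among the genes tested here and few counts. It had 3, 46, 70, 13 and 5 UMIs in RT + αPD-L1 mice 1 to 5 and 12, 18, 7, 7 and 16 UMIs in Control mice 1 to 5. As CPM this was 0.908, 3.31, 1.84, 1.17 and 0.737 in RT + αPD-L1 mice and 0.698, 0.627, 0.802, 1.39 and 1.07 in Control mice, and the groups overlapped widely (log2 fold change 1.13 ± 0.34 (SE), adjusted p = 0.0398). The call was lost without 6 of the 20 mice in turn (RT + αPD-L1 mouse 2 or 3, αPD-L1 mouse 4 and Control mouse 1, 2 or 3) and in 6 of the 10 other alternatives, and the log2 fold change without RT + αPD-L1 mouse 2 was the lowest of the values with a mouse left out, 0.73. In the dendritic cell-like cluster that was left out, Hspa1b had a median of 4.16 CPM and reached 67.1 CPM over 9 mice, beside a mean of 1.09 CPM in the T cells of those mice. Of 7 dendritic cell markers, only Itgax was called in the T cells of RT + αPD-L1 mice, and it was higher (log2 fold change 1.37 ± 0.38, adjusted p = 0.0263). The median log2 fold change over the 7 was 0.60, that of Cd74 was -0.37 ± 0.20, and none of the 7 was at 0 in any group. Their sum averaged 173.1 CPM in RT + αPD-L1 mice and 186.2 CPM in Control mice. The part of dendritic cells in the Hspa1b value was not tested. Its near copy Hspa1a, which was not tested, had 44 UMIs in RT + αPD-L1 mice, 21 in RT mice, 33 in αPD-L1 mice and 15 in Control mice, and Hspb1 had 20, 20, 23 and 21 UMIs in the same order of groups. Hspa1a and Hspa1b summed to 0.908, 4.168, 2.574, 1.348 and 1.032 CPM in RT + αPD-L1 mice 1 to 5. In Control mice 1 to 5 the sums were 0.9893, 0.7315, 1.031, 1.585 and 1.344 CPM, so that the groups overlapped.

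Cct5 (chr15:31590800-31601804) and Cct3 (chr3:88297116-88321767), subunits of the TRiC ring, were the members that fell. Cct5 had 245, 231, 246, 247 and 242 CPM in RT + αPD-L1 mice and 278, 274, 269, 264 and 268 CPM in Control mice, with no overlap (log2 fold change -0.15 ± 0.04 (SE), adjusted p = 0.0102). Cct3 had 128, 129.7, 145, 139.5 and 141 CPM in RT + αPD-L1 mice and 153, 151, 149.9, 153 and 152 CPM in Control mice, again with no overlap (log2 fold change -0.14 ± 0.04 (SE), adjusted p = 0.0358). Tcp1, another subunit of the ring, lies outside the name rule and was counted among the chaperone partners. All 8 Cct genes tested had a negative log2 fold change, with a median of -0.12. The values ran from -0.19 ± 0.34 (SE) for the rare Cct6b to -0.03, and the 6 other than Cct5 and Cct3 did not pass the test. Of these 8, all but the rare Cct6b were higher in the cluster led by Srm and Xcl1 than in the rest of the cells, and that cluster made up 5.66% to 8.46% of the cells of RT + αPD-L1 mice and 8.35% to 11.97% of those of Control mice. Without that cluster the log2 fold change of Cct3 was -0.003 (adjusted p = 0.992) and that of Cct5 -0.10 (adjusted p = 0.102). The call of Cct3 was also lost without 9 of the 20 mice in turn. Among them were every RT + αPD-L1 mouse but mouse 3 and every Control mouse but mouse 3. The call of Cct5 held with each of the 20 mice left out. Of the 10 other alternatives, Cct5 was called in 6 and Cct3 in 4.

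**Figure D1:**
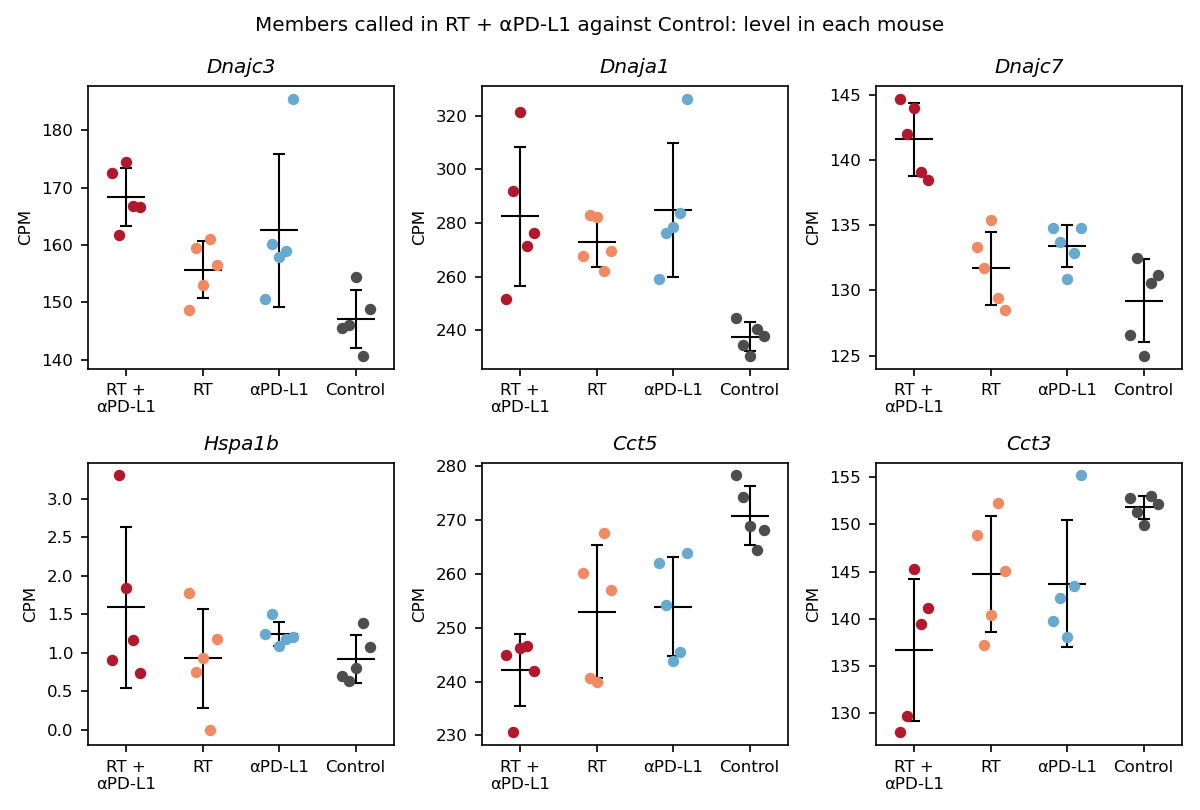
CPM (vertical axes, each on its own range; only that of Hspa1b includes 0) in each mouse for the 6 members called in RT + αPD-L1 against Control, with points for the 5 mice of each treatment and bars for mean and SD. Dnajc3, Dnaja1, Dnajc7, Cct5 and Cct3 do not overlap between RT + αPD-L1 and Control mice, whereas Hspa1b, at 0.63 to 3.31 CPM in these 10 mice, overlaps. Members that were not called can also lack overlap, such as Hspe1 and Hsp90ab1. The share of all genes without overlap was not counted.

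By role, the remaining members moved within narrow limits in RT + αPD-L1 against Control. Among 8 cytosolic Hsp70s and exchange factors, only Hspa1b was called. Hspa8 averaged 1911 ± 178 CPM in RT + αPD-L1 mice and 1762 ± 89.6 CPM in Control mice, with overlapping ranges (log2 fold change 0.13 ± 0.06 (SE), adjusted p = 0.194). Hsph1, the Hsp110 exchange factor, averaged 49.4 ± 7.51 CPM in RT + αPD-L1 mice and 41.7 ± 2.66 CPM in Control mice (log2 fold change 0.30 ± 0.10 (SE), adjusted p = 0.0721), with RT + αPD-L1 mouse 1 at 39.0 CPM inside the Control range and the other 4 above it. Hspa4 did not differ beyond its error (log2 fold change -0.02 ± 0.04 (SE), adjusted p = 0.801).

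Neither cytosolic Hsp90 passed the test, although Hsp90ab1 did not overlap between the groups. Hsp90ab1 had 2391 to 2508 CPM in RT + αPD-L1 mice and 2566 to 2799 CPM in Control mice (log2 fold change -0.12 ± 0.04 (SE), adjusted p = 0.0793), and stress-inducible Hsp90aa1 had 256 to 321 CPM in RT + αPD-L1 mice and 301 to 320.5 CPM in Control mice (log2 fold change -0.08 ± 0.06 (SE), adjusted p = 0.463). Of 7 mitochondrial genes 0 were called in edgeR, with 4 at an unadjusted p under 0.05 (2 higher and 2 lower) and 0 called in DESeq2. Their log2 fold changes ran from -0.16 to 0.24. The highest was that of the J protein Dnaja3 (0.24 ± 0.08 (SE), adjusted p = 0.061), named here after its values were seen. The log2 fold changes were -0.04 ± 0.07 for Hspd1 (Hsp60), -0.14 ± 0.05 for its lid Hspe1 (Hsp10) and -0.16 ± 0.06 for Hspa9, the mitochondrial Hsp70. Hspe1, though not called, had 415.0 to 449.9 CPM in RT + αPD-L1 mice and 464.8 to 495.4 CPM in Control mice, without overlap.

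Of 10 ER members, Dnajc3 was the gene called. Hspa5 (BiP), the ER Hsp70, averaged 399 ± 51.0 CPM in RT + αPD-L1 mice and 350.2 ± 27.2 CPM in Control mice (log2 fold change 0.20 ± 0.07 (SE), adjusted p = 0.0806), and Hsp90b1 (Grp94), the ER Hsp90, averaged 267 ± 42.2 CPM in RT + αPD-L1 mice and 238 ± 17.1 CPM in Control mice (log2 fold change 0.18 ± 0.10 (SE), adjusted p = 0.295). Both were highest in RT + αPD-L1 mouse 3 within their group. The ER J proteins Dnajb9 and Dnajb11 had log2 fold changes of -0.10 ± 0.10 and 0.07 ± 0.07 and did not pass. Of the 3 genes that share the ER stress response element, Dnajc3 passed the test and Hspa5 and Hsp90b1 did not. Without RT + αPD-L1 mouse 3 the log2 fold change was 0.11 for Hspa5 (adjusted p = 0.27) and 0.07 for Hsp90b1 (adjusted p = 0.75), while that of Dnajc3 stayed between 0.19 and 0.22 with each mouse left out in turn. Of 9 cytosolic J proteins, 6 had log2 fold changes above 0, and the range was -0.26 to 0.27. At an unadjusted p under 0.05, 4 were higher and 1 was lower. The lower one, named here after its values were seen, was Dnajb5 (log2 fold change -0.26 ± 0.09 (SE), adjusted p = 0.0764). Dnaja1 and Dnajc7 rose, and Dnajb1, the chief stress-induced partner of Hsp70, had 92.2 ± 6.25 CPM in RT + αPD-L1 mice and 83.3 ± 4.01 CPM in Control mice (log2 fold change 0.17 ± 0.06 (SE), adjusted p = 0.0648). Cct2 (log2 fold change -0.11 ± 0.04 (SE), adjusted p = 0.0831) and Cct8 (log2 fold change -0.06 ± 0.05 (SE), adjusted p = 0.505) did not pass. None of the 10 J proteins with special roles, of the 11 members without an assigned role or of the 2 small heat shock proteins tested was called, with 0, 1 and 0 at an unadjusted p under 0.05 and 0 called in DESeq2.

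**Figure D2:**
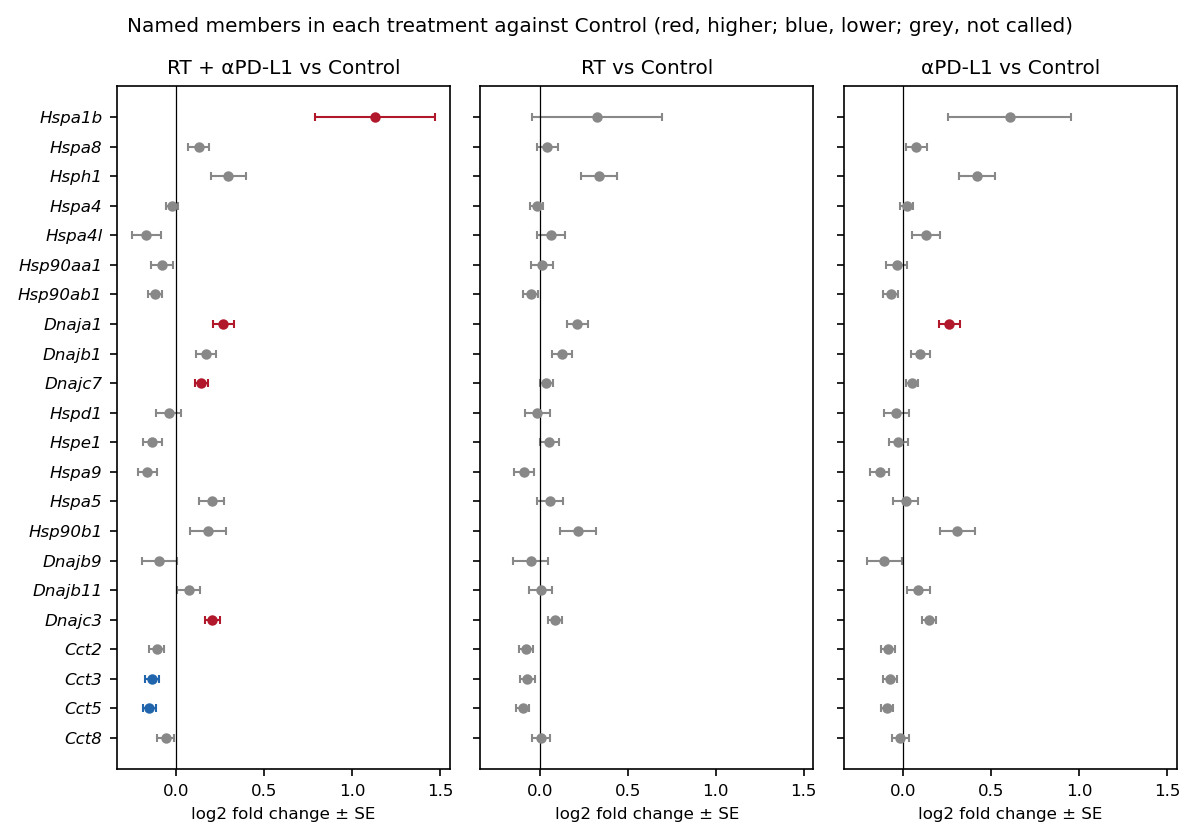
Log2 fold change with its standard error (horizontal axes) for 22 named members (rows, ordered by role) in RT + αPD-L1, RT and αPD-L1, each against Control, with red for genes called higher and blue for genes called lower. The 3 panels share the Control mice. Hspa1b has the widest error, 0.34 in the left panel, and Dnaja1 is the gene called in 2 panels.

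RT alone against Control asked for the effect of radiation, and 0 of the 67 genes were called in edgeR, against 0.0918% of all genes tested. At an unadjusted p under 0.05 there were 8 higher and 5 lower, and DESeq2 also called 0. Dnaja1 averaged 273 ± 9.29 CPM in RT mice and 238 ± 5.38 CPM in Control mice, with no overlap but no call (log2 fold change 0.21 ± 0.06 (SE), adjusted p = 0.204). Hsph1 averaged 51.4 ± 5.06 CPM in RT mice and 41.7 ± 2.66 CPM in Control mice (log2 fold change 0.34 ± 0.10 (SE), adjusted p = 0.25). Hspa1b was at 0 UMIs in RT mouse 4, the sample with the fewest UMIs.

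αPD-L1 alone against Control gave 1 call among the 67 genes, Dnaja1, against 0.459% of all genes tested, with 4 higher and 6 lower at an unadjusted p under 0.05. Dnaja1 had 259, 276, 278, 284 and 326 CPM in αPD-L1 mice and 245, 235, 231, 241 and 238 CPM in Control mice (log2 fold change 0.26 ± 0.06 (SE), adjusted p = 0.048). The groups did not overlap, and αPD-L1 mouse 5 was the highest of all 20 mice. The call stood at the threshold and was lost without 15 of the 20 mice in turn (without αPD-L1 mouse 5, log2 fold change 0.22, adjusted p = 0.131), while the log2 fold change stayed between 0.22 and 0.29. Hsph1 had 46.9, 56.6, 48.3, 54.0 and 73.2 CPM in αPD-L1 mice and 42.5, 38.0, 41.0, 45.4 and 41.9 CPM in Control mice, again without overlap, and missed the threshold (log2 fold change 0.42 ± 0.10 (SE), adjusted p = 0.0666). DESeq2 called 3 genes here, Dnaja1, Dnajc3 and Hsph1.

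The combination was next set against each single treatment. Against RT, 0 of the 67 genes were called in edgeR, beside 3.11% of all genes tested, with 4 higher and 6 lower at an unadjusted p under 0.05 and 1, Hspe1, called in DESeq2. Hspe1 averaged 437 ± 14.03 CPM in RT + αPD-L1 mice and 502 ± 33.8 CPM in RT mice (log2 fold change -0.19 ± 0.06 (SE), adjusted p = 0.0578). Against αPD-L1, 1 gene was called, Hspa4l, a relative of Hspa4, beside 2.53% of all genes tested. Hspa4l had 16.3, 18.5, 14.6, 19.2 and 18.3 CPM in RT + αPD-L1 mice and 22.5, 22.6, 17.8, 22.3 and 22.3 CPM in αPD-L1 mice (log2 fold change -0.30 ± 0.08 (SE), adjusted p = 0.0493). The groups overlapped through αPD-L1 mouse 3, the call was lost without 17 of the 20 mice in turn, and DESeq2 called 0 genes. At an unadjusted p under 0.05 there were 3 higher and 1 lower. Dnaja1 differed little between the combination and either single treatment, with log2 fold changes of 0.05 ± 0.06 against RT and 0.00 ± 0.06 against αPD-L1.

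Whether the combination exceeded the sum of both single treatments was tested as an interaction. No chaperone gene was called (0 of 67 in edgeR and 0 in DESeq2, with 2 higher and 7 lower at an unadjusted p under 0.05), beside 0.91% of all genes tested. The value was -0.46 ± 0.14 for Hsph1 (adjusted p = 0.147), -0.37 ± 0.11 for Hspa4l (adjusted p = 0.143) and -0.21 ± 0.09 for Dnaja1 (adjusted p = 0.307). For Dnajc3 it was -0.03 ± 0.06 (adjusted p = 0.955), and for Dnajc7 0.06 ± 0.05 (adjusted p = 0.773). A negative value means that the combination lay below the sum of the single effects on the log2 scale.

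Genes that work beside the chaperones were counted in the same fits, to be read against the 9.1% of all genes called in RT + αPD-L1 against Control. Of 36 chaperone partners tested, which are cochaperones, prefoldins and the like outside the name rule, 1 rose and 1 fell in RT + αPD-L1 against Control. Chordc1, an Hsp90 cochaperone, rose (log2 fold change 0.23 ± 0.06, adjusted p = 0.0161), and Clu, a secreted chaperone, fell by 1.64 ± 0.44 on the log2 scale (adjusted p = 0.0234). Of 21 other genes of the unfolded protein response, 2 rose, namely Ern1 (IRE1, the ER stress sensor, log2 fold change 1.18 ± 0.34, adjusted p = 0.0313) and Syvn1 (Hrd1, an ER ubiquitin ligase, 0.28 ± 0.08, adjusted p = 0.0429), and 0 fell. Of 22 immediate early genes, which can rise together with heat shock genes when tissue is handled, 1 rose (Ier3) and 3 fell (Nfkbia, Nr4a2 and Dusp1). The summed level of these 22 was 4652 to 5430 CPM in RT + αPD-L1 mice and 5410 to 5862 CPM in Control mice. In RT + αPD-L1 against RT the call was St13, the Hsp70 cochaperone Hip, which fell by 0.18 ± 0.05 on the log2 scale (adjusted p = 0.0274). In αPD-L1 against Control the single call was Nfkbia, which fell by 0.30 ± 0.06 on the log2 scale (adjusted p = 0.0248), while Chordc1 had a log2 fold change of 0.25 ± 0.06 (adjusted p = 0.0532).

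Cell states differed widely in these genes. Their levels are given as descriptions with no test, as means ± SD over the mice with at least 20 cells in a cluster, beside the rest of the T cells of the same mice. An unnamed cluster of 3236 cells, led by Srm, Xcl1, Shmt1 and Tnfrsf9, stood apart: chaperone genes made up 1.90% of its UMIs, against 0.900% in the rest of the same mice. Its cells held 1.76 times the median UMI count of their library. Srm makes spermidine and Tnfrsf9 (4-1BB) is induced when T cells are activated, but only 2 of the recently activated markers were among its 50 leading genes, which is too few for a name. Of 51 members with a median of at least 10 CPM, 27 were higher there than in the rest in all 19 mice, 16 at least 2 times as high, and 6 were lower in all 19 mice.

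The ratios to the rest in that cluster were highest for 3 mitochondrial chaperones, ahead of the other 48 of these 51 members. Hspd1 averaged 837 ± 70.1 CPM there and 138 ± 11.6 CPM in the rest, and the lowest value in the cluster (735 CPM) was above the highest in the rest (167 CPM). Hspe1, its neighbour in the genome, averaged 1210 ± 100.9 CPM there and 349.6 ± 12.5 CPM in the rest. Hspa9 averaged 286 ± 19.2 CPM there and 75.8 ± 3.44 CPM in the rest. The J protein Dnajc15, which sits in the inner mitochondrial membrane, averaged 302 ± 17.4 CPM there and 328 ± 16.4 CPM in the rest and was lower there in 17 of 19 mice. Over the 9 T cell clusters other than the low-depth cluster described next, the log2 levels of Hspd1 and Hspe1 had a Pearson r of 0.94, and over all 10 T cell clusters r was 0.61. Both are given as a description, since the clusters share the same libraries.

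The cytosolic machinery was higher in the same cells. Hsp90ab1 averaged 5631 ± 215 CPM there and 2039 ± 92.2 CPM in the rest, and Hsp90aa1 687 ± 58.4 CPM there and 237 ± 19.7 CPM in the rest. Hspa8 averaged 3149 ± 368 CPM there and 1621 ± 131 CPM in the rest, and its exchange factors Hsph1 and Hspa4 averaged 120.4 ± 21.9 and 329.6 ± 27.4 CPM there, and 38.3 ± 7.24 and 144 ± 6.05 CPM in the rest. All 7 Cct genes above 10 CPM were 2.14 to 3.26 times as high. Among them, Cct3 averaged 355 ± 18.9 CPM there and 109 ± 6.12 CPM in the rest. Cct5 averaged 514 ± 26.8 CPM there and 211 ± 8.94 CPM in the rest. Every one of these genes was higher in the cluster in 19 of 19 mice. The J proteins split. Dnaja1 averaged 338 ± 44.0 CPM there and 258 ± 26.0 CPM in the rest, whereas Dnajb1 averaged 74.3 ± 10.9 CPM there and 90.9 ± 5.49 CPM in the rest and was lower there in 18 of 19 mice. Dnajb9 (32.9 ± 4.44 CPM there and 54.0 ± 7.01 CPM in the rest) and Dnajc3 (124 ± 19.9 CPM there and 164 ± 10.7 CPM in the rest) were lower in 19 of 19 mice, while Hspa5 averaged 517 ± 57.7 CPM there and 342 ± 38.8 CPM in the rest.

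**Figure D3:**
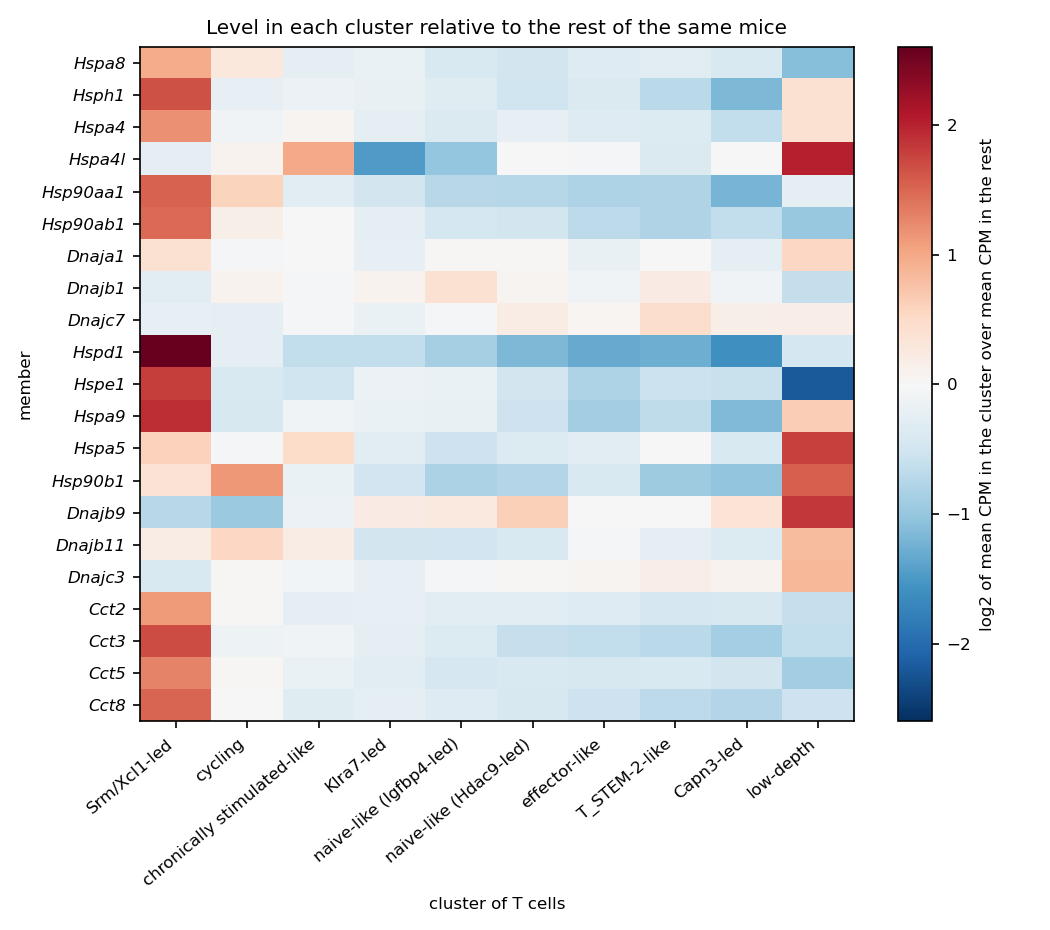
Each cell shows the log2 ratio (colour scale) of a member's mean CPM in a cluster (columns) to its mean in the rest of the T cells of the same mice, for 21 named members (rows, ordered by role). The Srm- and Xcl1-led column is red for mitochondrial, Hsp90, Hsp70 and TRiC members and blue for Dnajb9, and the low-depth column is red for the ER members.

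Cycling cells (4116 cells, with both G2/M and S phase markers) came next. The Hsp90 pair summed to 3160 CPM in them, against 6318 CPM in the Srm- and Xcl1-led cluster. Hsp90b1 averaged 471 ± 69.1 CPM there and 216 ± 28.7 CPM in the rest, and Dnajc9, a J protein that is also a histone chaperone, averaged 216 ± 11.7 CPM there and 105 ± 5.43 CPM in the rest. Both were higher in cycling cells in 19 of 19 mice. Hspe1 and Dnajb9 were lower in cycling cells in 19 of 19 mice, with Hspe1 at 378 ± 28.6 CPM there and 496 ± 36.3 CPM in the rest. The lowest sums of Hsp90 were those of the low-depth cluster (1544 CPM), the T_STEM-2-like cluster (1728 CPM) and the effector-like cluster (1860 CPM).

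The order of the clusters differed from role to role. The summed level of the mitochondrial chaperones was highest at 2869 CPM in the Srm- and Xcl1-led cluster, 1164 CPM in the cycling cluster and 1101 CPM in the Igfbp4-led naive-like cluster, and lowest at 711 CPM in the low-depth cluster, 895 CPM in the chronically stimulated-like cluster and 919.9 CPM in the Capn3-led cluster. That of the TRiC subunits was highest at 3110 CPM in the Srm- and Xcl1-led cluster, 1481 CPM in the cycling cluster and 1308 CPM in the chronically stimulated-like cluster, and lowest at 1006 CPM in the low-depth cluster, 1075 CPM in the Capn3-led cluster and 1079 CPM in the T_STEM-2-like cluster. For the cytosolic Hsp70s and exchange factors the sum was highest at 3798 CPM in the Srm- and Xcl1-led cluster, 2462 CPM in the cycling cluster and 1963 CPM in the Klra7-led cluster, and lowest at 1315 CPM in the low-depth cluster, 1644 CPM in the Hdac9-led naive-like cluster and 1689 CPM in the Capn3-led cluster. The cytosolic J proteins varied less, between 748 CPM in the Capn3-led cluster and 1107 CPM in the low-depth cluster.

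The ER chaperones had another order, and their sum was highest at 3133 CPM in the low-depth cluster, 1279 CPM in the cycling cluster and 1265 CPM in the chronically stimulated-like cluster, and lowest at 826 CPM in the Igfbp4-led naive-like cluster, 892 CPM in the Klra7-led cluster and 892 CPM in the Capn3-led cluster. The low-depth cluster, led by Gm26917 and Kcnq1ot1, had 0.263 times the median UMI count of its libraries, and the part of this depth in its levels was not tested. Hspa5 averaged 1209 ± 254 CPM there and 352 ± 33.8 CPM in the rest, Hsp90b1 764 ± 259 CPM there and 261 ± 37.6 CPM in the rest and Dnajb9 175 ± 44.5 CPM there and 48.9 ± 5.82 CPM in the rest, and each was higher in 19 of 19 mice. Hspe1 averaged 105 ± 26.6 CPM there and 477 ± 32.2 CPM in the rest and Hspa8 861 ± 124 CPM there and 1853 ± 135 CPM in the rest, and both were lower in 19 of 19. Hspd1, the partner of Hspe1, averaged 174 ± 69.5 CPM there and 238 ± 21.5 CPM in the rest. With this cluster set aside, 26 of the 51 members had their highest mean in the Srm- and Xcl1-led cluster, and the range over the remaining 9 clusters ran from 1.23 times for Dnajb12 to 9.41 times for Hspd1.

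Within clusters, RT + αPD-L1 was again compared with Control, to ask whether a gene differed in cells of like state. In the Igfbp4-led naive-like cluster 2 of 57 members were called, Dnaja1 and Hspa8, against 1.59% of all genes tested there. Dnaja1 averaged 298.8 ± 40.5 CPM in RT + αPD-L1 mice against 221 ± 24.2 CPM in Control mice (log2 fold change 0.47 ± 0.09, adjusted p = 0.000396), and Hspa8 averaged 1527 ± 218 CPM in RT + αPD-L1 mice against 1272 ± 61.4 CPM in Control mice (log2 fold change 0.26 ± 0.06, adjusted p = 0.00576). RT + αPD-L1 mouse 1, at 229 CPM of Dnaja1 and 1261 CPM of Hspa8, lay within the Control range for both, and the other 4 lay above it. In the Hdac9-led naive-like cluster 1 of 54 was called, Dnaja1, against 1.14%. It averaged 302 ± 47.0 CPM in RT + αPD-L1 mice against 238 ± 6.63 CPM in Control mice (log2 fold change 0.34 ± 0.08, adjusted p = 0.0158). Here too RT + αPD-L1 mouse 1, at 230.1 CPM, lay within the Control range, and the other 4 lay above it.

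In the Srm- and Xcl1-led cluster 3 of 58 members were called, all higher, against 1.31% of all genes. Dnaja1 averaged 355 ± 28.3 CPM in RT + αPD-L1 mice against 288 ± 16.1 CPM in Control mice (log2 fold change 0.32 ± 0.07, adjusted p = 0.0227), and the 2 groups of 5 mice did not overlap. Hspa8 averaged 3346 ± 272 CPM in RT + αPD-L1 mice against 2777 ± 201 CPM in Control mice (log2 fold change 0.26 ± 0.07, adjusted p = 0.0464), also without overlap. Hsph1 averaged 126 ± 19.2 CPM in RT + αPD-L1 mice against 96.2 ± 8.90 CPM in Control mice (log2 fold change 0.48 ± 0.10, adjusted p = 0.0054), where RT + αPD-L1 mouse 1 at 94.1 CPM overlapped Control. In the Klra7-led cluster, led by Ly49 receptor genes, 1 of 45 was called, Hspa8, against 1.6%, with 1904 ± 253 CPM in RT + αPD-L1 mice against 1518 ± 48.0 CPM in Control mice over 4 and 3 mice (log2 fold change 0.34 ± 0.09, adjusted p = 0.0283). In cycling cells 1 of 59 was called, Hspa5, against 2.51%. It averaged 403 ± 57.7 CPM in RT + αPD-L1 mice against 322 ± 25.7 CPM in Control mice (log2 fold change 0.33 ± 0.09, adjusted p = 0.0451). The groups overlapped: RT + αPD-L1 mouse 4, at 353.3 CPM, lay within the Control range of 298.3 to 363.7 CPM. RT + αPD-L1 mouse 3 was the highest at 499.8 CPM.

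No member was called in edgeR in the Capn3-led cluster (0 of 60, 6 at an unadjusted p under 0.05, 0.813% of all genes called), the effector-like cluster (0 of 59, 7 and 0.954%), the low-depth cluster (0 of 43, 1 and 1.94%) or the chronically stimulated-like cluster (0 of 53, 5 and 0.566%). DESeq2 was not run within clusters. Over the 9 clusters other than the T_STEM-2-like one, the log2 fold change was positive in 9 of 9 for Dnaja1 (0.14 to 0.47), Hspa8 (0.04 to 0.34), Hsph1 (0.18 to 1.09) and Hsp90b1 (0.08 to 0.23), and negative in 9 of 9 for Cct5 (-0.33 to -0.03), while that of Dnajc3 was positive in 8 of 9. The clusters share the same mice and libraries, so these signs are not independent of each other. Differences between clusters in the effect of treatment were not tested.

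The T_STEM-2-like cluster, where αPD-L1 kept 1 mouse with 20 cells or more, was fitted after the other results were seen, with 4 RT + αPD-L1, 3 RT, 1 αPD-L1 and 4 Control mice. Of 51 members tested there, 0 were called in edgeR, with 1 at an unadjusted p under 0.05 (Cct6a, a TRiC subunit named here after its values were seen, log2 fold change 0.39 ± 0.16, adjusted p = 0.585), and 0 of all 8203 genes tested were called (0.0%). In these cells Dnajc7 averaged 172 ± 5.87 CPM in RT + αPD-L1 mice and 175.5 ± 33.7 CPM in Control mice (log2 fold change -0.03 ± 0.14, adjusted p = 0.999), and Dnaja1 averaged 275.8 ± 38.6 CPM in RT + αPD-L1 mice and 235.8 ± 49.6 CPM in Control mice (log2 fold change 0.16 ± 0.14, adjusted p = 0.877). Dnajc3 averaged 183 ± 7.84 CPM in RT + αPD-L1 mice and 155.5 ± 27.3 CPM in Control mice (log2 fold change 0.13 ± 0.13, adjusted p = 0.903). The Control mice held 26 to 110 cells of this cluster, and the errors of these differences were up to 0.14 on the log2 scale.

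**Figure D4:**
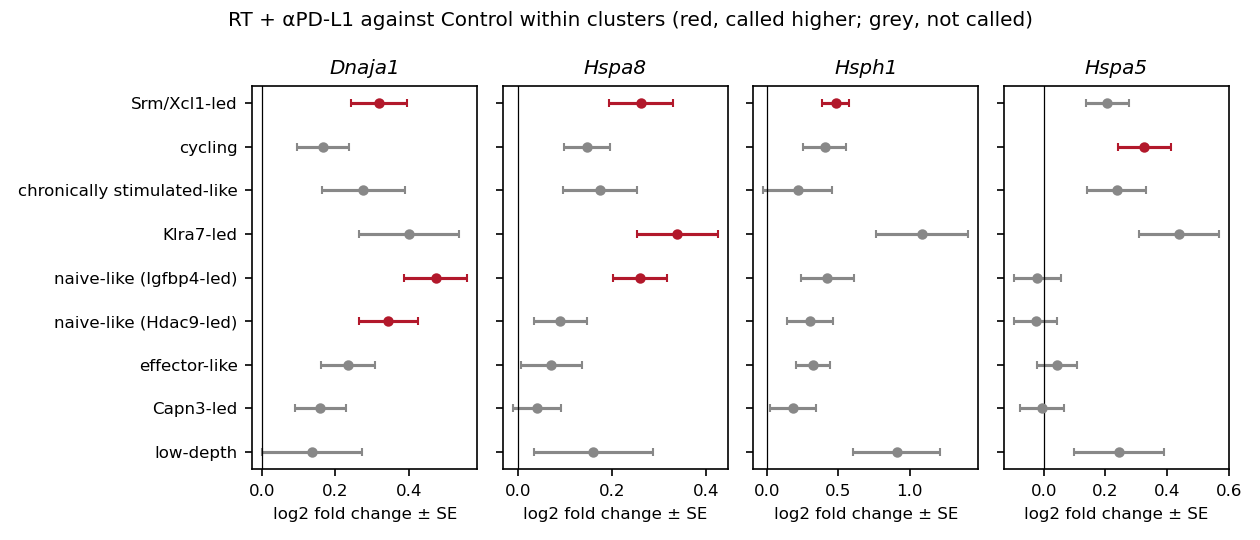
Log2 fold change with its standard error (horizontal axes) of Dnaja1, Hspa8, Hsph1 and Hspa5 in RT + αPD-L1 against Control within each of 9 T cell clusters (rows), with red for a called gene. Dnaja1 and Hspa8 are each called in 3 clusters, and Dnaja1, Hspa8 and Hsph1 lie right of 0 in all 9.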

How the data were processed

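Per the labels and the matrix header, the authors captured and sequenced single cells on the 10x platform, aligned reads to the mouse genome mm10 with Cell Ranger (6.1.2 in the header, while the methods name another version) and deposited raw UMI counts per gene and hashtag, 1 matrix per treatment. The label names a 3′ kit. Libraries held 10984 to 13369 barcodes. Filters kept 43971 of 47820, those with 500 to 5000 genes, no more than 40000 UMIs and a mitochondrial share below 10%. Each was given to a mouse where 1 of 5 hashtags lay above the emptiest bin between the low and the high mode of its log10 counts, which left 39189 cells. This differs from HTODemux, which the authors' methods name and which was run here in Seurat 5.3.0 as an alternative. The assignments differed greatly for some mice. Control mouse 1 had 2080 compared cells here, 706 with HTODemux at margin 2 of its normalization and 58 at margin 1. Other mice changed little, such as αPD-L1 mouse 3 with 2443, 2447 and 2413 cells in the same order. Cells with several hashtags (7.46% to 8.85%) were removed as doublets, and no other doublet caller was run. Hashtag numbers only name mice.

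Clusters were made in scanpy 1.11.5 (Python 3.11.15, leidenalg 0.10.2) from 2000 variable genes without the chaperone genes, with 20 components, 15 neighbours and resolution 0.6. Counts were summed per mouse over 10 T cell clusters and tested with edgeR 4.0.16 (R 4.3.3), with filterByExpr, TMM and the quasi-likelihood test over 1 model of all 4 treatments. Benjamini-Hochberg adjustment ran over all genes tested, and within a cluster over mice with at least 20 cells. The biological coefficient of variation was 0.0882. On simulated counts for 11983 genes the RT + αPD-L1 against Control test recovered 96 of 100 genes changed by 0.5 on the log2 scale and 100 of 100 changed by 1, and called 9 unchanged genes. The changed genes were drawn from those at 10 CPM or more, and all genes were given the same coefficient of variation. Smaller changes and rarer genes, among them 16 of the 67 members tested, were thus not covered. CPM in the text is UMIs of a gene over all UMIs of the mouse. Promoter windows are from RefSeq, and gene positions from the GENCODE annotation of GRCm38.

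Members given in full are a core of stress-inducible and abundant genes of each role, plus every other member called in a treatment comparison. The members and all lists (cochaperones, unfolded protein response, immediate early genes and markers of CD8, B, dendritic, γδ T cells and monocytes) were chosen with earlier results of these data known. Alternatives were DESeq2 1.42.0, its size factors in edgeR, no filter, both HTODemux settings, other sets of cells and leaving out each mouse. Leaving out the low-depth and the Srm- and Xcl1-led cluster was chosen after seeing the data, as was the fit within the T_STEM-2-like cluster, which asked for 3 mice in RT + αPD-L1 and Control only.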

Additional observations from a re-analysis of the deposited data

Results flagged for a closer look

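Named members were screened for mice far from the other 4 of their treatment, in 88 groups of 5 mice (22 members). By Dixon's criterion at a ratio above 0.71, 5 values were flagged, some of them in the same mouse. Chance marks about 1 in 20 groups, and 5 of 88 is near that share. In αPD-L1 mouse 5, Hspd1 was at 302.3 CPM with the next mouse at 223.9 CPM, and Dnajc3 was at 185.5 CPM with the next at 160.1 CPM. In RT + αPD-L1 mouse 3, the mouse with the most cells, Hspa5 was at 485.9 CPM with the next at 396.2 CPM, and Hsp90b1 was at 339.9 CPM with the next at 261.7 CPM. In αPD-L1 mouse 3, Hspa4l was at 17.75 CPM with the nearest other mouse at 22.26 CPM.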

How the results depend on the processing

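Between RT + αPD-L1 and Control, 6 members were called, against 2 with HTODemux at margin 2, 2 at margin 1, 2 without T_STEM-2-like cells and 13 without cycling cells, and 3 to 9 with each mouse left out. The remaining alternatives gave 4 (DESeq2 and without the Srm- and Xcl1-led cluster) to 7. Dnaja1 and Dnajc3 stayed called in every one of these 30 fits. Between αPD-L1 and Control the count was 1, against 3 with DESeq2, 0 with DESeq2's size factors, without a filter, with either HTODemux setting, without cycling cells, without the low-depth cluster and without the Srm- and Xcl1-led cluster, and 0 to 2 with a mouse left out. Between RT + αPD-L1 and RT it was 0, against 1 with DESeq2, 2 without cycling cells, 1 without the Srm- and Xcl1-led cluster and 0 to 1 with a mouse left out (1 without αPD-L1 mouse 2 or RT mouse 3). Between RT + αPD-L1 and αPD-L1 it was 1, against 0 with DESeq2, its size factors, no filter, either HTODemux setting, without T_STEM-2-like cells and without cycling cells, and 0 to 1 with a mouse left out. RT against Control and the interaction gave 0 throughout. Within 9 clusters there were 8 calls, and 8 with the T_STEM-2-like cluster added after seeing the data. With at least 50 cells per mouse the chronically stimulated-like and Klra7-led clusters were not fitted, and the other 7 had 7 calls at both limits. Causes were not tested. No called log2 fold change changed sign. No paired analysis was made, because each treatment used its own mice. With 131 cells in the smallest mouse and few UMIs for the inducible Hsp70s, values of rare members were imprecise, and each treatment is 1 library.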
